A study of Homo sapiens with 5 samples.

Results

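Glucocorticoid-responsive genes were followed in cultured small-cell lung cancer (SCLC) cells with and without brain endothelial cells nearby. They comprised 10 named genes out of 64837 entries in the count files: NR3C1, which encodes the glucocorticoid receptor, and TSC22D3, FKBP5, PER1, ZBTB16, SGK1, KLF9, DUSP1, ERRFI1 and CRISPLD2, which are known to be induced when that receptor is active. The genes were matched by symbol and joined to the counts by gene identifier. All 10 were among the 20360 genes with enough counts to be compared. The members were chosen by name when the fold changes between the groups, which are the measured values in question, were already known, so the values of these 10 genes in that comparison are a description and carry no test.

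The cells were NCI-H209, an established human SCLC line that grows in suspension, kept in RPMI-1640 with fetal bovine serum. The 3 control libraries came from NCI-H209 cells labelled untreated. The 2 co-cultured libraries came from NCI-H209 cells kept for 24 h below a Transwell insert that held human brain microvascular endothelial cells (HBMECs), so that the cell types shared medium but not contact. Both groups were 1 line without a genetic change, no source used here says that the libraries came from separately grown cultures, and any p-value measures only the spread between these libraries. According to the study's methods, the HBMECs had been grown with fetal bovine serum and Nu-serum, a supplement known to contain hormones, hydrocortisone among them. Which medium was in the well during the co-culture, and whether control wells held an insert, was not given in the sources used here. Factors released by HBMECs and factors carried with their medium cannot be told apart in this design.

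Glucocorticoids such as cortisol enter the cell and bind the glucocorticoid receptor (GR), which is held ready in the cytoplasm by HSP90 and its partner proteins. The receptor then moves to the nucleus, binds DNA at palindromic glucocorticoid response elements, mostly far from start sites, and raises transcription of a set of genes that includes its own inhibitor FKBP5. The same receptor is known to lower transcription of inflammatory genes driven by NF-κB and AP-1, such as those for chemokines, and most of its induced genes also answer to other signals.

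The libraries held between 15457071 and 19157348 counts in genes. The 3 control libraries were not equally alike: the chi-square per degree of freedom was 17.4 and 17.7 between control replicate 1 and the other 2, and 6.26 between those 2. The share of reads left unmapped was 8.13% to 8.48% with the controls and 15.9% to 16.8% after co-culture. Reads that fell on no gene of the counted strand made up 47.3% to 51.2% with the controls and 40.1% to 40.8% after co-culture. The part of either share in the results was not tested. Among 13 neuroendocrine markers of SCLC, INSM1, a zinc-finger factor of neuroendocrine cells, stood at 498 to 636 CPM (counts per 1000000 gene counts, after scaling between libraries) in the 5 libraries, whereas CHGA (chromogranin A) had 1 count in 1 library and 0 in the others. Of the 12 neuroendocrine markers tested, 4 rose and 2 fell (33.3% and 16.7%, against 18.4% and 15.0% of all genes). Their median log2 fold change was 0.08. Without control replicate 1, 7 rose. The 2 that fell became 0 without control replicate 2 or with unstranded counts. They became 1 without control replicate 3 or with the replicate block. Of 17 endothelial markers, PLVAP and MMRN1 were at 0 in all libraries and 6 had at most 3 counts in any library. The summed level of these markers was 9.88 to 21.4 CPM in the control libraries and 13.1 to 13.6 CPM in the co-cultured ones. ESAM (endothelial adhesion molecule) was the 1 marker of the 9 tested that passed the test, with a log2 fold change of 2.14 (adjusted p = 0.00666). ESAM had enough counts only in the co-cultured libraries, so that it had to be higher there to be tested at all. It did not pass without co-cultured replicate 1 (1.98). None of the 9 was called lower by edgeR over all 5 libraries (0 genes, and 1 at an unadjusted p under 0.05), but DESeq2 called FLT1 lower, and FLT1, KDR and TEK were called lower without control replicate 3, with the replicate block and with the filter lowered to 1 count. FLT1 had 30, 28 and 0 counts in the controls and 1 in each co-cultured library.

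The 10 genes did not move as a block. In the co-cultured cells ERRFI1 was 9.11-fold, TSC22D3 5.18-fold, SGK1 4.68-fold, NR3C1 2.07-fold and KLF9 1.63-fold higher than in the controls. PER1, ZBTB16, FKBP5 and DUSP1 lay between 1.15-fold and 1.43-fold above the controls, and CRISPLD2 was 1.43-fold below them. The median log2 fold change was 0.61 over the 10 genes and -0.03 over all 20360. With a threshold of 0.05 on the adjusted p, 5 of the 10 were called higher and 1 lower, while 33.4% of all genes were called, 18.4% higher and 15.0% lower. The ranges of the groups did not touch in 8 of the 10, 7 higher and 1 lower, and in 59.4% of all genes, 29.4% higher and 30.0% lower. Nothing is read from these counts, because the list was chosen with the contrast in view. The same holds wherever a gene of the 10 is said below to be called or not called.

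**Figure D1:**
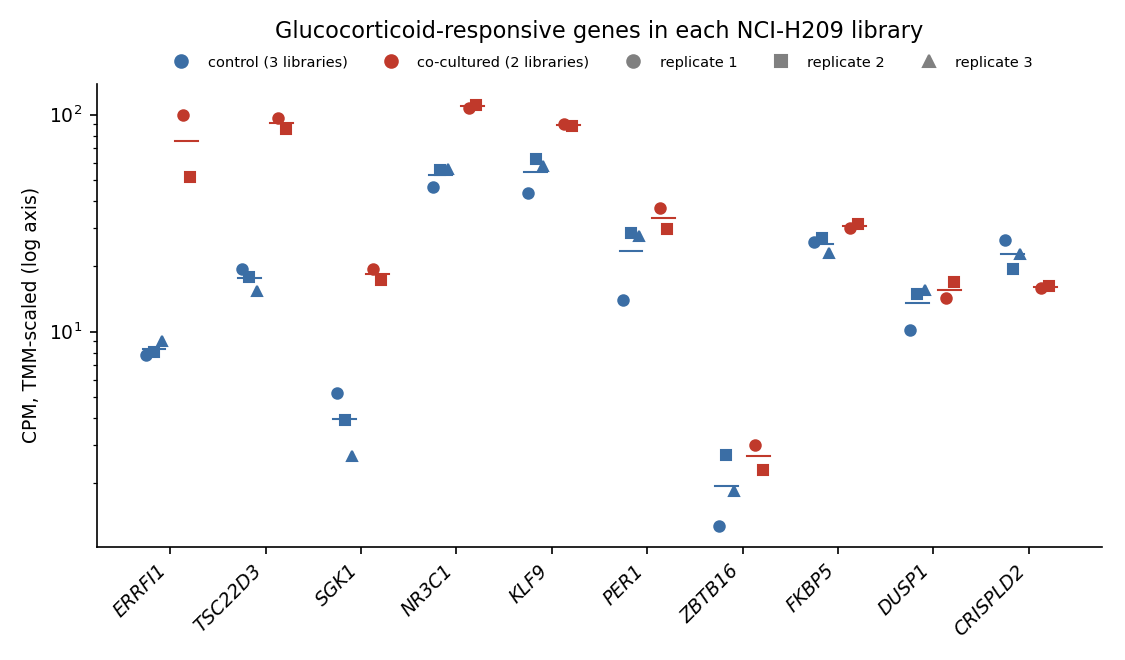
Level of each gene in each library, in CPM scaled with TMM factors on a log axis; blue marks control and red co-cultured libraries, the marker shape gives the replicate number and the short lines are group means. For ERRFI1, TSC22D3, SGK1, NR3C1, KLF9, PER1 and FKBP5 the red points lie above all 3 blue ones. Control replicate 1 was the lowest control for PER1, ZBTB16, DUSP1, KLF9, NR3C1 and ERRFI1. It was the highest for TSC22D3, SGK1 and CRISPLD2.

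NR3C1 is the receptor through which the other genes are addressed, and it lies at chr5:143277931-143435512 on the minus strand (GRCh38, as for all positions here). Its level was 46.6, 55.5 and 56.0 CPM in control replicates 1, 2 and 3, and 108 and 111 CPM in co-cultured replicates 1 and 2. Both co-cultured libraries were thus above every control library, and they differed from each other by less than the controls did. The fitted log2 fold change was 1.05 (SE 0.094), and it stayed between 0.97 and 1.10 when each library was left out in turn. The values rested on 876 to 1971 counts per library.

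FKBP5 encodes an HSP90 partner that lowers the affinity of GR for its ligand, and its induction is one of the most widely used readouts of GR activity. The gene (chr6:35573585-35728583, minus strand) was at 25.9, 27.0 and 22.9 CPM in the controls and at 30.1 and 31.2 CPM in the co-cultured libraries. The groups did not overlap, but the gap between them was small. Its log2 fold change was 0.28 (SE 0.10), with 447 to 551 counts behind each value, and ranged from 0.22 to 0.33 with each library left out. It was not among the genes called over all 5 libraries and was among them without control replicate 1, at a log2 fold change of 0.30.

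TSC22D3 encodes GILZ, a leucine zipper protein that binds NF-κB and AP-1 subunits and is known to carry part of the anti-inflammatory action of glucocorticoids. It lies at chrX:107713221-107777342 on the minus strand. The level was 19.5, 17.9 and 15.4 CPM in the 3 controls and 96.4 and 85.7 CPM in the 2 co-cultured libraries. The lowest co-cultured library lay far above the highest control. Its log2 fold change of 2.37 (SE 0.11; 2.29 to 2.46 with each library left out) was the most even of the 3 large ones among the 10 genes.

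PER1 encodes a repressor of the circadian clock that glucocorticoids induce rapidly. The gene (chr17:8140472-8156506, minus strand) stood at 14.0, 28.5 and 27.6 CPM in the controls and at 37.2 and 29.7 CPM in the co-cultured libraries. The groups did not overlap, yet co-cultured replicate 2 was only just above control replicate 2, and control replicate 1 was 0.498 of the mean of the other 2 controls. A log2 fold change of 0.52 (SE 0.26) was fitted. Without control replicate 1 it fell to 0.26, and PER1 was then among the genes called, which it was not with all 5 libraries.

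ZBTB16 encodes the zinc-finger repressor PLZF and is known for a strong response to glucocorticoids in many cell types. It lies at chr11:114059593-114250676 on the plus strand and was the lowest of the 10 genes. It had 24, 49 and 36 counts in the controls and 55 and 35 in the co-cultured libraries, or 1.28, 2.71 and 1.84 CPM against 3.01 and 2.31 CPM. Here the groups overlapped. The log2 fold change was 0.46 (SE 0.33), and it ranged from 0.24 without control replicate 1 to 0.77 without control replicate 2. ZBTB16 was not among the genes called over all 5 libraries.

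KLF9 encodes a Krüppel-like repressor that is directly induced by GR and by thyroid hormone receptor in neurons and other cells. The gene (chr9:70384597-70414624, minus strand) was at 43.3, 62.3 and 58.2 CPM in the controls, and at 90.2 and 88.2 CPM in the co-cultured libraries. The co-cultured libraries were close to each other and above all controls, of which control replicate 1 was the lowest. For KLF9 the log2 fold change was 0.71 (SE 0.13), between 0.57 and 0.82 with each library left out. KLF9 was no longer among the genes called without co-cultured replicate 1, at a log2 fold change of 0.70.

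SGK1, ERRFI1 and DUSP1 act on kinase signalling. SGK1 encodes a kinase of the AKT family that promotes sodium uptake and that serum, osmotic stress and corticosteroids all induce. The gene (chr6:134169246-134318112, minus strand) was at 5.21, 3.93 and 2.66 CPM in the controls and at 19.5 and 17.2 CPM in the co-cultured libraries. Every co-cultured value was more than any control value by a wide margin. It had a log2 fold change of 2.23 (SE 0.22; 2.01 to 2.49 with each library left out). Reads of the opposite strand made up 25.2% to 33.3% of those over SGK1 in the controls and 2.25% to 2.46% in the co-cultured libraries. Counted without regard to strand, the log2 fold change was 1.82.

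ERRFI1 encodes MIG6, a protein that binds and inhibits the EGF receptor family, and it is induced by growth factors and stress as well as by glucocorticoids. It lies at chr1:8004404-8026308 on the minus strand. The controls were close together at 7.82, 8.02 and 9.06 CPM, whereas the co-cultured libraries were at 99.5 and 51.5 CPM. Both co-cultured libraries were far above the controls, but the first was 1.93 times the second. ERRFI1's log2 fold change of 3.19 (SE 0.24) was accordingly 2.64 without co-cultured replicate 1 and 3.59 without co-cultured replicate 2.

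DUSP1 encodes a phosphatase that switches off the MAP kinases p38 and JNK. This short gene (chr5:172768090-172771195, minus strand) was at 10.2, 14.9 and 15.5 CPM in the controls and at 14.3 and 16.8 CPM in the co-cultured libraries, and the groups overlapped. DUSP1 had a log2 fold change of 0.20 (SE 0.19). It was 0.03 without control replicate 1 and 0.33 without co-cultured replicate 1.

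CRISPLD2 encodes a secreted protein that binds lipopolysaccharide and that glucocorticoids induce in airway smooth muscle. The gene (chr16:84819984-84920768, plus strand) was at 26.4, 19.5 and 22.7 CPM in the controls and at 15.8 and 16.2 CPM in the co-cultured libraries. It was the 1 member with both co-cultured libraries below all controls. CRISPLD2 had a log2 fold change of -0.52 (SE 0.14; -0.61 to -0.40 with each library left out). It was no longer called without co-cultured replicate 1 (-0.49) or without co-cultured replicate 2 (-0.53).

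**Figure D2:**
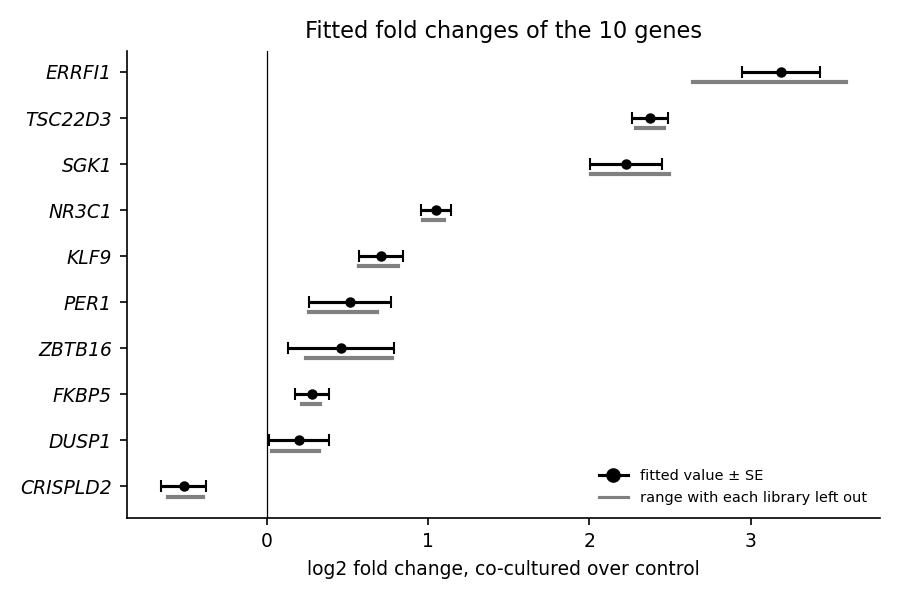
Fitted log2 fold change of each gene, co-cultured over control, as a point with its standard error (black bars), and the range of the value when each of the 5 libraries is left out in turn (grey lines). ERRFI1, TSC22D3 and SGK1 lie above 2, PER1 to DUSP1 between 0.20 and 0.52, and CRISPLD2 at -0.52.

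The level of a gene can be set against that of another only per length. In CPM per kilobase of exon, the control means ran from KLF9 at 10.5 ± 1.93 (SD, n = 3) through DUSP1 at 6.69 ± 1.45, NR3C1 at 5.75 ± 0.579 and TSC22D3 at 3.69 ± 0.428 down to ERRFI1 at 1.98 ± 0.160, SGK1 at 0.394 ± 0.128 and ZBTB16 at 0.305 ± 0.113. Between TSC22D3 and ERRFI1 came PER1, CRISPLD2 and FKBP5, at 3.34 ± 1.16, 2.87 ± 0.434 and 2.38 ± 0.200. Of the 9 pairs of neighbours in this order, the ranges over the controls were separate for KLF9 and DUSP1, for NR3C1 and TSC22D3, and for ERRFI1 and SGK1. The other neighbours overlapped. In the co-cultured libraries TSC22D3, ERRFI1 and KLF9 stood highest, at 19.1 ± 1.58 (SD, n = 2), 18.0 ± 8.11 and 17.2 ± 0.273, and NR3C1 followed at 11.9 ± 0.215.

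**Figure D3:**
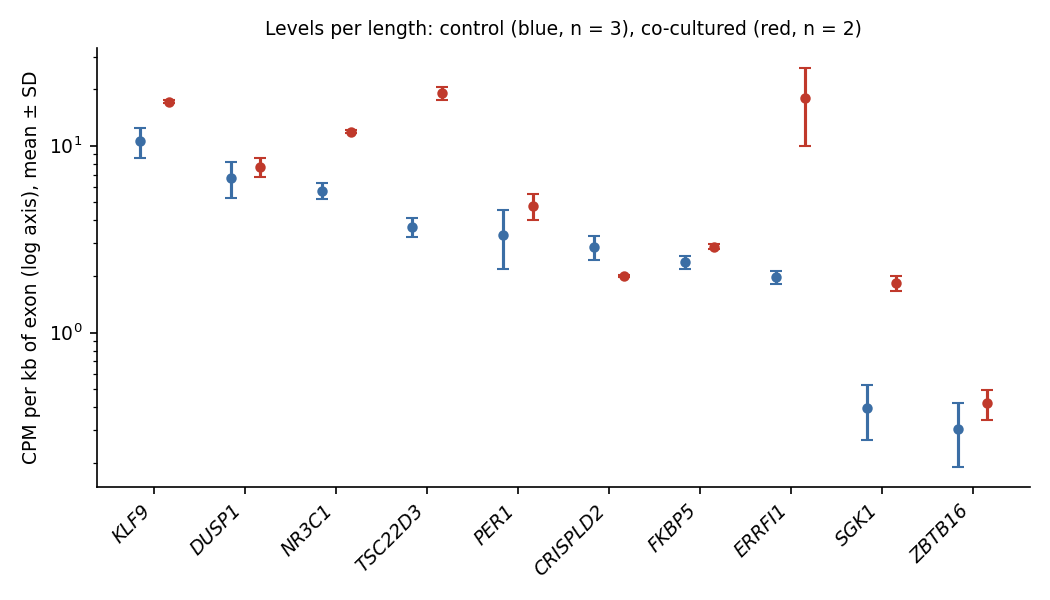
Level of each gene per length, in CPM per kilobase of exon on a log axis, as mean ± SD over the 3 control (blue) and the 2 co-cultured libraries (red), ordered by the control mean. TSC22D3 went from 3.69 to 19.1 and ERRFI1 from 1.98 to 18.0, while DUSP1 stood at 6.69 and 7.70.

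To show what lies at the start sites of these genes, the promoter windows of RefSeq (GRCh38.p14; 250 bases before to 50 after each start) were searched. Windows were found for 9 of the 10 genes, 21 windows in all, and ZBTB16 had none in the table used. The GR palindrome joins the arms AGAACA and TGTTCT with 3 free bases between them. With up to 2 mismatches in its 12 fixed letters, on either strand, it was in 0 of the 21 windows and in 1.41% of all 35116 windows. With 3 mismatches allowed it was in 1 window, of FKBP5, and in 10.8% of all. One arm of the palindrome, AGAACA or TGTTCT, was in 2 windows, of FKBP5 and SGK1, and in 14.8% of all. Other motifs were searched after the values had been seen. The cAMP response element TGACGTCA was in the window of DUSP1 (1.85% of all windows), and its arm TGACG or CGTCA, which the full element contains, was in 7 windows of DUSP1, NR3C1 and TSC22D3 (24.6% of all). The E-box CACGTG, the letters that clock proteins bind, was in windows of DUSP1, FKBP5 and PER1 (7.26% of all). A match is only a string of letters, and the absence of one says nothing of binding elsewhere.

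Shown here are the 250 bases before a start site for the genes with the 2 highest fold changes, ERRFI1 (chr1:8026310-8026559) and TSC22D3 (chrX:107717063-107717312), and for 3 known targets that differed little, FKBP5 (chr6:35688916-35689165), PER1 (chr17:8152405-8152654) and DUSP1 (chr5:172771196-172771445). All 5 are on the minus strand and are written 5′ to 3′ along the gene. Capitals mark the cAMP response element, its arms and the E-box. TSC22D3 and FKBP5 have other windows that are not shown. Among them is the FKBP5 window with the 3-mismatch palindrome and an arm of it (chr6:35728534-35728833). A TSC22D3 window that is not shown (chrX:107775939-107776238) held none of the letters marked here.
ERRFI1: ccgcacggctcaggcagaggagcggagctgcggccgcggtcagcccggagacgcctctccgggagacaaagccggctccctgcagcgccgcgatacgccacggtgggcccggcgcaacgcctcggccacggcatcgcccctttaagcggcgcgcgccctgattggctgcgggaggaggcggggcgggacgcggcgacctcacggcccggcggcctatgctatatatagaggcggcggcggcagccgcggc
TSC22D3: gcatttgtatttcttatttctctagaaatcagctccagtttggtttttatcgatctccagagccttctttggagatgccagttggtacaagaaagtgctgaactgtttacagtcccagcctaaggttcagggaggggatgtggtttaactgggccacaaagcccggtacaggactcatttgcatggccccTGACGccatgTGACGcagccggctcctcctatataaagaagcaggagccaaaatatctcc
FKBP5: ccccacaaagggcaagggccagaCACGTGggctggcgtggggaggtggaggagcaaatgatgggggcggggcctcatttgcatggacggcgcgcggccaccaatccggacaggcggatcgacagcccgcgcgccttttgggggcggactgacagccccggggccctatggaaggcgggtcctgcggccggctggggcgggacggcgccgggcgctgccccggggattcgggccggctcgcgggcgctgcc
PER1: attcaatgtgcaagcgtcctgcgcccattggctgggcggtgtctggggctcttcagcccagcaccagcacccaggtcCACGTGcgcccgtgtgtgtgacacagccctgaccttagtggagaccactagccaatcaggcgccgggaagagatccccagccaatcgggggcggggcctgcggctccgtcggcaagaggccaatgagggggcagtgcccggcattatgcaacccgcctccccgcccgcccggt
DUSP1: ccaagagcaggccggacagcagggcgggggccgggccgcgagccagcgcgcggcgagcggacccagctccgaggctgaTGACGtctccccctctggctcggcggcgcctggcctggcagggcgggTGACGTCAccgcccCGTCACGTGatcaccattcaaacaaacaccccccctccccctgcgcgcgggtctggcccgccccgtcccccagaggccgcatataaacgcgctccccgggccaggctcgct
In these windows, TSC22D3 held the arm TGACG 60 and 50 bases before the start. DUSP1 held the full element 125 bases and CACGTG 108 bases before the start. CACGTG stood 173 bases before the start in PER1 and 227 bases before it in FKBP5, and ERRFI1 held none of these letters.

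The receptor does not work alone, and 32 other genes for hormone receptors, chaperones, coregulators and steroid enzymes were read beside NR3C1. Of the 29 tested, 11 rose and 4 fell (37.9% and 13.8%, against 18.4% and 15.0% of all genes), with a median log2 fold change of 0.27. Most changes were small. The steroid receptor coactivators NCOA1 and NCOA3 rose, with log2 fold changes of 0.56 (SE 0.083, adjusted p = 0.0011) and 0.49 (SE 0.074, adjusted p = 0.00133). STIP1, the adaptor that hands GR from HSP70 to HSP90, rose by 0.52 (SE 0.11, adjusted p = 0.00718) on the log2 scale. The genes that fell were BAG1, an HSP70 cochaperone (-0.75), the chaperones HSPA8 (-0.72) and HSP90AB1 (-0.43), and SMARCA4, the ATPase of the SWI/SNF remodeller (-0.40). HSP90AA1 had a log2 fold change of -0.42 that did not pass the test (adjusted p = 0.0812), but it passed in 6 of the 12 alternatives, among them DESeq2 (adjusted p = 0.0453), the replicate block (0.0162), and the fits without control replicate 1 (-0.22) or control replicate 3 (-0.55). FKBP4, the partner that FKBP5 competes with for HSP90, was at 0.27 (adjusted p = 0.0441), and PTGES3, the cochaperone p23, was at 0.13 (adjusted p = 0.298). HSPA8, HSP90AA1, FKBP4 and PTGES3 were named after their values had been seen. The counts rested on few libraries: 11 higher became 6 without control replicate 2, and 2 without either co-cultured replicate, and 4 lower became 0 without co-cultured replicate 1 and 1 without co-cultured replicate 2. STIP1, HSP90AB1, SMARCA4 and HSPA8 did not pass without either co-cultured replicate, BAG1 without the first, and FKBP4 in every leave-out but that of control replicate 1. HSPA8 also did not pass with DESeq2 (-0.71, adjusted p = 0.0839), nor FKBP4 with the replicate block (0.22) or upper-quartile scaling (0.19).

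Of the other hormone receptors, NR3C2, the mineralocorticoid receptor that also binds cortisol, was at 8.77, 16.4 and 15.5 CPM in the controls and at 22.9 and 24.4 CPM in the co-cultured libraries. Its log2 fold change was 0.80 (SE 0.22, adjusted p = 0.0220), higher in 2 of 2 co-cultured libraries than in every control. It did not pass the test without co-cultured replicate 1 (0.85) or co-cultured replicate 2 (0.76). THRA, a thyroid hormone receptor, was at 0.28 (adjusted p = 0.0905) and at 0.18 (adjusted p = 0.0442) without control replicate 1. The oestrogen receptor genes ESR1 (0.32, adjusted p = 0.548) and ESR2 (0.89, adjusted p = 0.0638) had 41.2% to 64.8% and 70.5% to 92.2% of their reads on the opposite strand, so that both are uncertain, and ESR2 passed without control replicate 3 (1.25), with the replicate block (1.25) and with the filter lowered to 1 count (0.89). PGR had 4, 1 and 1 counts in the controls and 7 and 4 in the co-cultured libraries, THRB had 3 to 8 counts, and neither was tested. HSD11B1, the enzyme that turns inert cortisone into cortisol inside cells, was at 0 in all 5 libraries, and HSD11B2, which does the reverse, had 48 to 69 counts.

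A list of 60 further genes known to be induced by glucocorticoids gave 46 that could be tested. Of these 20 rose and 4 fell (43.5% and 8.70%, against 18.4% and 15.0% of all genes), and 22 passed in neither direction. The median log2 fold change was 0.27, and it was -0.03 over all 20360 genes. TNFAIP3, which encodes the NF-κB inhibitor A20, rose from 31.8 to 40.9 CPM in the controls to 120 and 133 CPM (log2 fold change 1.82, SE 0.11, adjusted p = 2.19e-05). DDIT4, an inhibitor of mTORC1 that hypoxia also induces, rose by 2.30 (SE 0.16, adjusted p = 4.12e-05) on the log2 scale. BIRC3, an inhibitor of apoptosis and a known NF-κB target, rose by 1.51, the transcription factor CEBPB by 0.90, the clock gene PER2 by 1.02 and the small GTPase RHOB by 1.14. NFKBIA, which encodes IκBα and is both a GR and an NF-κB target, rose by 0.72 (adjusted p = 0.000574). The genes that fell were the metallothionein MT2A (-0.69), the GTPase RASD1 (-0.76), OTULINL (-0.60) and SCNN1G, a subunit of the epithelial sodium channel on which SGK1 acts (-0.51). These 4, NFKBIA and the genes that follow were named after their values had been seen. The 6 from TNFAIP3 to RHOB were named for the smallest p in the list. Of the 46 tested, 29 had a positive and 17 a negative log2 fold change. ANGPTL4 had 0 counts in all 3 controls and 53 and 11 in the co-cultured libraries, at least 10.9-fold higher by their mean against a floor of 3 counts per library, and at least 4.38-fold in co-cultured replicate 2 alone. All reads over ANGPTL4 in the controls (100%), and 11.7% to 47.6% in the co-cultured libraries, were on the opposite strand, and its log2 fold change was 1.29 with unstranded counts. KLF15, an early GR target in many tissues, had 13, 16 and 20 counts in the controls and 12 and 15 in the co-cultured libraries. Of the 20 that rose, ANGPTL4 and AZGP1 had enough counts only in the co-cultured libraries. The count of 20 higher became 12 without co-cultured replicate 1. The count of 4 lower became 7 without control replicate 1 and 2 without co-cultured replicate 2. SCNN1G did not pass without control replicate 2 or without either co-cultured replicate, nor RASD1 without co-cultured replicate 2.

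**Figure D4:**
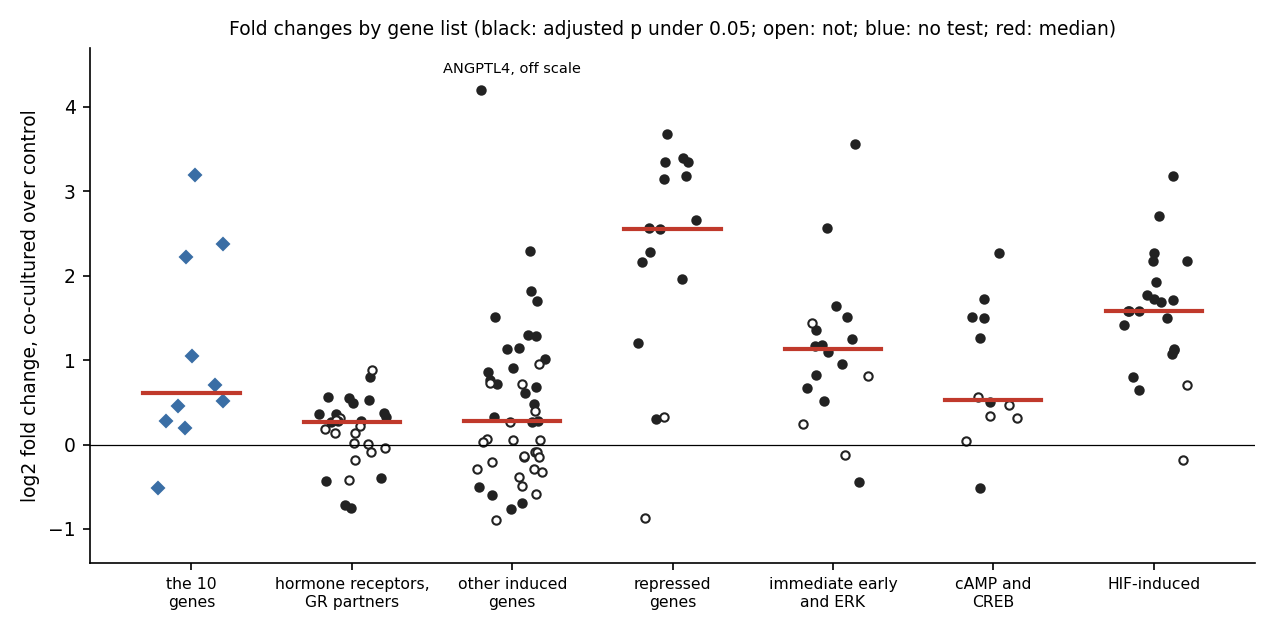
Log2 fold change, co-cultured over control, of each tested gene in 7 lists, each point 1 gene. Black points passed an adjusted p of 0.05 and open points did not. Blue diamonds are the 10 genes described, drawn without regard to a test, and red lines are medians. The median was 0.61 for the 10 genes, 0.27 for the other glucocorticoid-induced genes and 2.56 for the 16 tested genes that glucocorticoids repress, 5 of which had enough counts only in the co-cultured libraries.

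Of 34 genes that glucocorticoids are known to repress, 18 had too few counts to be tested. Of the other 16, 14 rose and 0 fell by edgeR, and 2 passed in neither direction. The 14 were 41.2% of the list and 87.5% of its tested genes. Over all tested genes 18.4% rose and 15.0% fell. CXCL10, ICAM1, LIF, PTGS2 and SELE, 5 of the 14, had enough counts only in the co-cultured libraries, so that they had to be higher there to be tested at all. The other 9 had enough in the controls too. The median log2 fold change of the 16 tested was 2.56, or 2.42 with SELE taken at the bound that its low control counts allow. This median is over the genes that passed the count filter, not over the list. At an unadjusted p under 0.05, 0 fell, and DESeq2 also called 0 lower. CXCL8, the neutrophil chemokine, was at 3.62, 1.55 and 0.922 CPM in the controls and at 17.5 and 19.5 CPM in the co-cultured libraries (log2 fold change 3.19, SE 0.37, adjusted p = 0.000317). CXCL1 and CXCL2, which use the same receptor, rose by 2.56 (SE 0.21, adjusted p = 7.9e-05) and 3.15 (SE 0.27, adjusted p = 9.32e-05), and CXCL3 rose by 2.55. PLAU, the urokinase plasminogen activator, rose by 1.97, and IRF1, an interferon-response factor, by 1.20. CCL20, CCL2, PTGS2 (cyclooxygenase 2) and LIF, named after their values had been seen, rose by 2.66, 2.16, 3.34 and 3.68. NOS2 was at -0.87 (adjusted p = 0.122), and it was the 1 gene called lower without control replicate 1 (-0.99). The cytokine genes TNF, CCL5 and CSF2 and the hormone genes CRH and PRL were at 0 in all libraries. In the same libraries TSC22D3, whose product is known to hold NF-κB back, was at a log2 fold change of 2.37 and FKBP5 at 0.28.

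**Figure D5:**
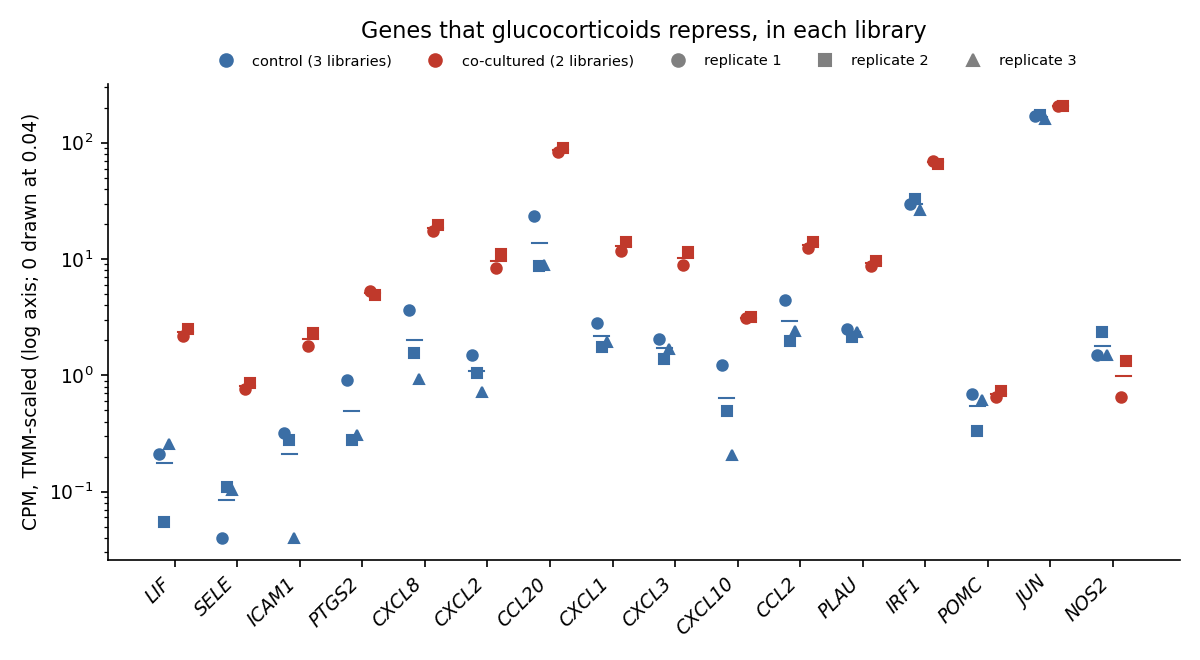
Level in each library, in CPM scaled with TMM factors on a log axis, of the 16 tested genes that glucocorticoids are known to repress; blue marks control and red co-cultured libraries, and short lines are group means. CXCL8 went from 0.922 to 3.62 CPM in the controls to 17.5 and 19.5 CPM, whereas NOS2 was lower in the co-cultured libraries without passing the test.

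Several of the 10 genes answer to other signals as well, and the genes of those signals were read in the same fit. Of 22 genes induced by the hypoxia-inducible factor (HIF), all tested, 20 rose and 0 fell by edgeR (0 also at an unadjusted p under 0.05, and 0 by DESeq2), with a median log2 fold change of 1.58. VEGFA, the vascular growth factor, rose by 1.59 (SE 0.11, adjusted p = 4.05e-05) and EGLN1, the oxygen-sensing prolyl hydroxylase, by 1.50 (SE 0.11, adjusted p = 4.14e-05). Of 22 immediate early genes and targets of the ERK kinases, 18 were tested, 13 rose, 1 fell and the median was 1.13. Among them the stress factor ATF3 rose by 1.10 and PHLDA1 by 1.51, and the antiproliferative gene BTG2 fell by 0.45 on the log2 scale. The 13 became 8 without co-cultured replicate 2, and BTG2 did not pass without co-cultured replicate 1. Of 14 genes that cAMP and its factor CREB induce, 12 were tested, 6 rose, 1 fell and the median was 0.53. The phosphodiesterase PDE4D rose by 1.50 and the AP-1 member FOSL2 by 2.27, and CRTC1, a coactivator of CREB, fell by 0.52. DUSP5 among the 13 and NR4A3 among the 6 had enough counts only in the co-cultured libraries. The share of tested genes that rose was 90.9% in the HIF list, 72.2% in the ERK list and 50% in the cAMP list. It was 18.4% over all genes. The share that fell was 0%, 5.56% and 8.33% in these lists, and 15.0% over all genes. The part that any of these signals had in the levels of ERRFI1, SGK1, TSC22D3 or KLF9 was not tested.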

How the data were processed

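RNA-Seq was run on rRNA-depleted total RNA of NCI-H209 cells with a directional library kit, in 3 control and 2 co-cultured samples. The submitters' processing notes name CASAVA 1.8, STAR 2.6.1b, DESeq2 and the build GRCh38. The authors deposited, for each library, read counts per gene, without normalization, in 3 columns (unstranded and each strand). The count on the strand that the kit reads was used here, and the unstranded count as an alternative. The gene identifiers of the files pair with GENCODE 29. A table of gene identifiers and names was used for the symbols only: its columns of means, fold changes, standard errors, statistics and p-values are the authors' own comparison and were not used. Rows that name no gene held 66.4% to 69.3% of a library's reads and were left out, and 0 columns of values lacked a sample.

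Genes kept by filterByExpr were fitted with edgeR 4.0.16 in R 4.3.3 (TMM scaling, quasi-likelihood test, Benjamini-Hochberg adjustment over 20360 genes), and genes were called at an adjusted p under 0.05. Each adjusted p in the text comes from this fit, unless another fit is named beside it. CPM values are scaled by the TMM factors. An exact permutation test of 3 against 2 libraries cannot go below 0.1, so none was run. Exon lengths and positions are from GENCODE 29, and promoter windows are from RefSeq. The steps were tested on simulated counts. The 12 alternatives were DESeq2 1.42.0, 2 other scalings, 2 other filters, unstranded counts, a replicate block and leaving out each library.

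The 10 genes and the other gene lists were chosen with earlier results of these data known. Named were all 10 genes, 7 hormone receptor genes (1 of them is not reported here), the 6 genes with the smallest p in each of the lists of GR partners, induced and repressed genes, and the 2 with the smallest p in the lists for HIF, ERK and cAMP. Naming by the smallest p also picks genes by their values. Other genes are said to have been named after their values were seen, where they appear, and ESAM, BTG2 and CRTC1 were too.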

Additional observations from a re-analysis of the deposited data

How the results depend on the processing

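All 10 genes kept their direction under the 12 alternatives. Of 120 values, 117 moved by less than the spread between replicates. The others were SGK1 with unstranded counts (1.82) and ERRFI1 without either co-cultured replicate. The median log2 fold change of the 10 genes, 0.61, was 0.75 with the replicate number as a block and 0.44 to 0.79 with each library left out. PER1 was also called with the block and with the filter lowered to 1 count in some library, and FKBP5 with unstranded counts. Same-numbered libraries of the groups did not deviate together (correlations of -0.11 and -0.067). With 2 co-cultured libraries, both correlations rest on the same co-cultured difference. They cannot decide whether the shared numbers are a pairing. With the block 4824 genes were called in place of 6809, and 6 of the GR partners higher in place of 11.

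With each library left out, the GR partners gave 2 to 16 higher and 0 to 6 lower, the other induced genes 12 to 23 higher and 2 to 7 lower, and the repressed genes 11 to 14 higher and 0 to 1 lower. With at least 10 counts in every library, 9 repressed genes were higher in place of 14. Calls over all genes were 2734 without co-cultured replicate 1 and 3023 without co-cultured replicate 2. Upper-quartile scaling moved the share of calls that were higher from 55.1% to 43.9%. The log2 fold changes of ESR1 (-0.022) and ESR2 (-0.35) changed sign with unstranded counts, which include the reads on the opposite strand. The origin of those reads was not tested. Allowing 3 mismatches raised the promoter windows with the palindrome from 0 to 1. By level without division by length, 6 of the 10 genes changed rank. With 2 co-cultured libraries and 24 to 55 counts, ZBTB16 limits what can be seen.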
